A study of Homo sapiens with 6 samples.

Results

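MALAT1, NEAT1, SFPQ, NONO and PSPC1 are 5 human genes whose RNA or protein resides in nuclear speckles or in the neighbouring paraspeckles. They were taken by gene name from the table of gene counts and account for 5 of its 58735 rows. All 5 passed the filter on low counts and are among the 16591 genes tested. The cells were RPE-1, an immortalized human retinal pigment epithelial line, carrying GFP-tagged Cetn2 and a PLK4 gene driven by a doxycycline-responsive, rtTA-dependent promoter. In the siControl group (n = 3 libraries) the cells received a scramble siRNA, and in the siSON group (n = 3) an siRNA against SON. PLK4 was induced with 1 µg/mL doxycycline in both groups, so every comparison is between cells that also over-produce this centriole kinase. Neither the time after transfection nor whether the line is 1 clone is given in the sources used here, and nothing in the labels says that the 3 libraries of a group came from separate cultures. The p-values therefore measure the spread between these libraries, which may be technical.

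The libraries held 54572365 to 69764836 counts. At that depth 3 counts correspond to between 0.0430 and 0.0550 CPM, the usual unit of counts relative to library size. All other CPM values are also scaled with TMM factors (trimmed mean of M-values). These ranged from 1.06 to 1.08 in siControl and from 0.926 to 0.945 in siSON, so they differ by group and raise siSON values relative to siControl. SON, the siRNA target and a nuclear speckle scaffold protein, stood at 295, 313 and 284 CPM in siControl and at 68.0, 70.0 and 65.0 CPM in siSON, which is 22.8% of the control level (log2 fold change -2.14, SE 0.06, edgeR adjusted p = 6.78e-10). Of 10 markers of retinal pigment epithelium, TYR and TTR were at 0 in every library, RPE65 had 18, 6 and 6 counts in siControl and 0 in every siSON library, and RLBP1 and TYRP1 had at most 7 counts. Of the 5 tested, MITF (log2 fold change 0.52), OTX2 (0.82) and BEST1 (0.62) rose and PMEL (-3.36) and LRAT (-2.62) fell. The summed level of the 10 was 51.5 to 53.3 CPM in siControl and 74.1 to 83.4 CPM in siSON, most of it from the 3 that rose. Summed mesenchymal markers stood at 15172 to 17884 CPM in siControl against 14626 to 16084 CPM in siSON, which overlap. Most of that sum came from FN1 (0.029) and VIM (-0.14), neither of them called. The other 4 of these 6 markers were called lower, namely COL1A1 (-1.85), S100A4 (-1.35), COL1A2 (-0.71) and THY1 (-0.57). Summed keratins stood at 784 to 889 against 1342 to 1407 CPM. Of these 4, KRT18 (1.48) and KRT8 (0.34) were called higher, KRT7 (-0.76) was called lower, and KRT19 had at most 22 counts. Cyclic loess normalization gave 1 keratin higher and 1 lower. The 5 blood and endothelial markers, 1 of them at 0 throughout, summed to 2.78 to 3.94 against 0.806 to 1.65 CPM. The part of these marker levels in the results was not tested. In RNA from whole cultures, fewer cells of a type and less RNA per cell cannot be told apart.

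Nuclear speckles are bodies rich in splicing factors, organised around the proteins SON and SRRM2, and MALAT1 is an abundant long non-coding RNA that accumulates in them. Paraspeckles form beside speckles on a different long non-coding RNA, NEAT1, whose long form is the scaffold and whose short form ends at an early polyadenylation site. SFPQ, NONO and PSPC1 are the DBHS family of RNA-binding proteins. SFPQ and NONO are needed for paraspeckles to form and stabilise long NEAT1, and PSPC1 is a paraspeckle marker that pairs with either of them.

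MALAT1 and long NEAT1 do not end in a conventional poly(A) tail. RNase P cuts each transcript in front of a tRNA-like element, and the new end is protected by a triple helix of 2 U-rich motifs and an A-rich tract. The ends are shown because the libraries were made with an mRNA-seq kit, per the labels, and the long forms lack a poly(A) tail. They were read by position from within the long unspliced GENCODE 29 transcripts of MALAT1 and NEAT1 (GRCh38, plus strand) and are written 5′ to 3′ as DNA. The MALAT1 stretch stops where the annotated tRNA-like element begins, not at an annotated transcript end. In both long ends, capitals mark the 3 runs of at least 8 bases that the 2 ends share, 2 of them U-rich and 1 A-rich, with 8, 16 and 11 bases. In the stretch around the early NEAT1 polyadenylation site, capitals mark the signal AATAAA, and no annotated transcript ends exactly where this stretch does.
MALAT1 3′ end, chr11:65506017-65506116: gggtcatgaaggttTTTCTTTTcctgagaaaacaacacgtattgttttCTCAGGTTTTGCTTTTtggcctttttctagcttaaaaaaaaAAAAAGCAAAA
mascRNA, the tRNA-like element that follows it, chr11:65506117-65506173: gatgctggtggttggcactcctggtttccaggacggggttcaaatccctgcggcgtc
NEAT1 long form 3′ end, chr11:65445441-65445540: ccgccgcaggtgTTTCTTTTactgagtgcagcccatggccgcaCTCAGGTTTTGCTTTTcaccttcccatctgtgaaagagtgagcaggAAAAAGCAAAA
NEAT1 early polyadenylation signal and its surroundings, chr11:65426443-65426528: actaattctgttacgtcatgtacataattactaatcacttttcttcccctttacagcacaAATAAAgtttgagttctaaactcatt
The 3 shared runs come in the same order in MALAT1 and NEAT1. The deposited counts are 1 value per gene and do not separate the forms, so the levels of the short and long NEAT1 forms were not analysed here. The part of poly(A) status in the MALAT1 and NEAT1 counts was not tested.

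MALAT1 and NEAT1 RNA were both lower after SON knockdown, NEAT1 to 16.4% and MALAT1 to 36.0% of the control level. MALAT1 (ENSG00000251562) is a lincRNA gene at chr11:65497688-65506516 on the plus strand with 17 annotated transcripts. It had 16046, 10364 and 7817 counts in siControl replicates 1 to 3 and 4244, 3053 and 2377 counts in siSON, or 229.97, 163 and 105 CPM against 73.1, 59.2 and 46.8 CPM. All 3 siSON libraries lay below all 3 siControl libraries, and the lowest library of each group was replicate 3. siControl averaged 166 ± 62.7 CPM and siSON 59.7 ± 13.2 CPM (± SD over 3 libraries, here and below). The log2 fold change was -1.47 (SE 0.26, 95% interval -2.07 to -0.88, edgeR quasi-likelihood test with Benjamini-Hochberg adjusted p = 0.000761), a 2.78-fold lower level.

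NEAT1 (ENSG00000245532) is a lincRNA gene at chr11:65422774-65445540, also on the plus strand, with 8 annotated transcripts. It ends 52147 bases before MALAT1 begins. Its counts were 8467, 6424 and 4962 in siControl and 1049, 983 and 519 in siSON, or 121, 101 and 66.4 CPM against 18.1, 19.1 and 10.2 CPM. The groups did not overlap, and the lowest siControl library held over 3 times the level of the highest siSON library. siControl averaged 96.3 ± 27.8 CPM and siSON 15.8 ± 4.85 CPM, and the log2 fold change was -2.61 (SE 0.27, 95% interval -3.21 to -1.998, edgeR adjusted p = 1.87e-05), a 6.09-fold lower level.

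PSPC1 RNA fell to 38.4% of the control level. The gene (ENSG00000121390) lies at chr13:19674752-19783019 on the minus strand, and 3 of its 8 annotated transcripts are classed as targets of nonsense-mediated decay and 2 as retained-intron forms. It had 6441, 4871 and 5880 counts in siControl and 1818, 1696 and 1576 in siSON, or 92.3, 76.6 and 78.7 CPM against 31.3, 32.9 and 31.0 CPM. The 3 siSON libraries were within 2 CPM of one another and far below every siControl library. siControl averaged 82.5 ± 8.52 CPM and siSON 31.7 ± 1.01 CPM, and the log2 fold change was -1.38 (SE 0.08, 95% interval -1.55 to -1.21, edgeR adjusted p = 4.52e-08).

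SFPQ and NONO rose slightly, by 0.34 and 0.32 on the log2 scale, under TMM scaling, but their direction turned under cyclic loess normalization (-0.015 and -0.085). SFPQ (ENSG00000116560) lies at chr1:35176378-35193148 on the minus strand and encodes a splicing factor that also acts in transcription. It stood at 321, 283 and 249 CPM in siControl and at 406, 345 and 329 CPM in siSON. The lowest siSON library was only just above the highest siControl library. siControl averaged 284 ± 35.5 CPM and siSON 359.9 ± 40.4 CPM (log2 fold change 0.34, SE 0.10, 95% interval 0.12 to 0.56, edgeR adjusted p = 0.0107). With library size as the only scaling the difference was 0.14 and no longer passed the test (edgeR adjusted p = 0.188).

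NONO (ENSG00000147140), at chrX:71283192-71301168 on the plus strand, encodes the usual partner of SFPQ. It stood at 567, 561 and 569 CPM in siControl and at 714, 695 and 713 CPM in siSON. The replicates of a group nearly coincided and the groups were well apart. siControl averaged 565 ± 4.26 CPM and siSON 707 ± 10.4 CPM. The log2 fold change was 0.32 (SE 0.04, 95% interval 0.23 to 0.42, edgeR adjusted p = 3.65e-05), against 0.13 with library size alone (adjusted p = 0.0155) and -0.085 under cyclic loess (limma adjusted p = 0.0762). Raw NONO counts themselves, 39551, 35642 and 42495 in siControl and 41450, 35866 and 36231 in siSON, overlapped.

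**Figure D1:**
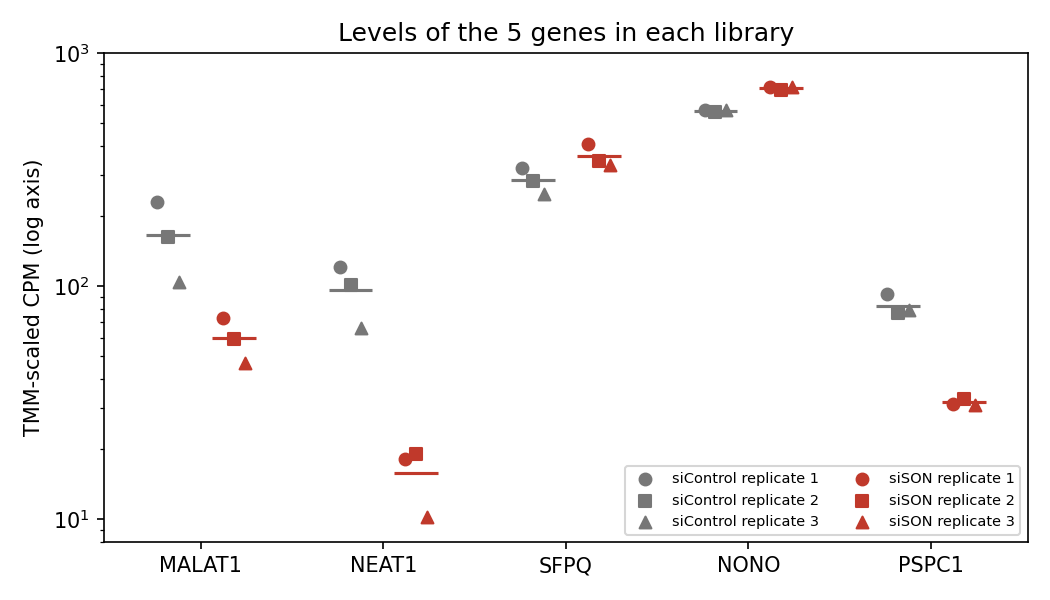
TMM-scaled CPM (log axis) of the 5 genes in each of the 3 siControl and 3 siSON libraries. NEAT1 libraries sit at 66.4 to 121 CPM in siControl and 10.2 to 19.1 CPM in siSON. The SFPQ and NONO groups differ far less but do not overlap, and their direction turns under cyclic loess normalization.

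These calls stood on a wide background, since 71.7% of all genes tested passed the same test. A lower level was called for 3 of the 5 genes and for 36.5% of all genes, and a higher level for 2 of the 5 and for 35.2%. All 3 siSON libraries lay below all 3 siControl libraries for 38.2% of genes and above them for 36.9%. By an exact 2-sided permutation test over libraries each of the 5 gave p = 0.1, the smallest that 3 against 3 libraries allow. A fall of at least 2-fold was called for 20.5% of all genes, and MALAT1, NEAT1 and PSPC1 belong to these. Protein-coding genes, the class of SFPQ, NONO and PSPC1, were called in 77.4% of cases, 37.1% lower and 40.3% higher. Among 790 lincRNA genes tested, 59.1% were called, 45.6% as lower and 13.5% as higher, and the median log2 fold change was -0.67 against -0.03 over all genes. Of these lincRNAs, 69 had a lower fold change than NEAT1 and 218 a lower one than MALAT1. The lincRNA split of 107 higher and 360 lower became 174 and 243 under cyclic loess, with a median of -0.16.

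**Figure D2:**
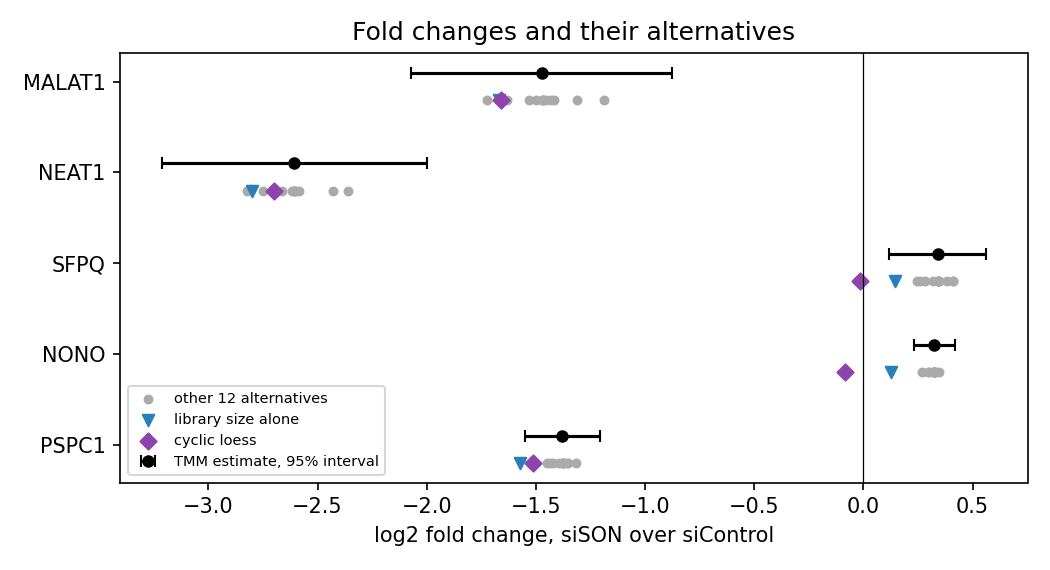
Log2 fold change of siSON over siControl for each gene with its 95% interval under TMM scaling, and the values under 14 alternatives. MALAT1, NEAT1 and PSPC1 stay below 0 in all of these, while SFPQ and NONO reach -0.015 and -0.085 under cyclic loess.

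All lincRNA genes together took 0.356%, 0.336% and 0.293% of counts in siControl replicates 1 to 3 and 0.195%, 0.191% and 0.175% in siSON. MALAT1 and NEAT1 made up 10.5%, 8.48% and 6.25% of these lincRNA counts in siControl and 4.32%, 3.87% and 3.03% in siSON. Without the pair, the lincRNA share was still 0.275% to 0.319% in siControl and 0.170% to 0.187% in siSON.

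Levels of different genes were compared per length, as RPKM, the CPM divided by the length of the merged exons in kilobases. In siControl the order was NONO at 107 ± 0.804, SFPQ at 38.3 ± 4.79, MALAT1 at 18.8 ± 7.10, PSPC1 at 17.1 ± 1.77 and NEAT1 at 4.23 ± 1.22 RPKM (SD, n = 3). By this length, MALAT1 and PSPC1 did not differ beyond their spread. The same order held in siSON, where MALAT1 stood at 6.76 ± 1.49, PSPC1 at 6.59 ± 0.209 and NEAT1 at 0.693 ± 0.213 RPKM, with MALAT1 and PSPC1 again within their spread. Merged exons held 4817 bases for PSPC1, 7426 for SFPQ and 5292 for NONO. Their longest annotated protein-coding transcripts have 2407, 3747 and 2882 bases, and those lengths would raise their RPKM. How MALAT1 and PSPC1 compare therefore depends on the length used. The place of NEAT1 also depends on which form its reads came from. Over the 3684-base span of an annotated short transcript that begins at the gene start and stops before the AATAAA marked above, its level would be 26.1 ± 7.54 RPKM in siControl and 4.28 ± 1.32 RPKM in siSON.

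Ratios between 2 genes within a library are free of library scaling. Over all 10 pairs, the groups did not overlap for 8, and each of those had an exact p of 0.1, the smallest possible, and 0.125 after Benjamini-Hochberg adjustment. Pairs that join a fallen gene to a risen one largely repeat the single-gene differences. Among single genes, 38.2% lay wholly below and 36.9% wholly above siControl in siSON. The share over pairs of other genes was not computed, so the count is no result about these 5. The log2 ratio of MALAT1 to NEAT1 was 0.92, 0.69 and 0.66 in siControl and 2.02, 1.63 and 2.19 in siSON, higher in every siSON library. The mean difference was 1.19 (SE 0.19), so NEAT1 was lower relative to MALAT1. The NONO to PSPC1 ratio rose by 1.70 (SE 0.090) and the SFPQ to PSPC1 ratio by 1.72 (SE 0.12), without overlap. The pairs that overlapped were SFPQ to NONO, with a difference of 0.019 (SE 0.14, exact p = 0.9), and MALAT1 to PSPC1, with -0.051 (SE 0.33, exact p = 0.9). An SE of 0.33 leaves room for a difference in either direction.

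**Figure D3:**
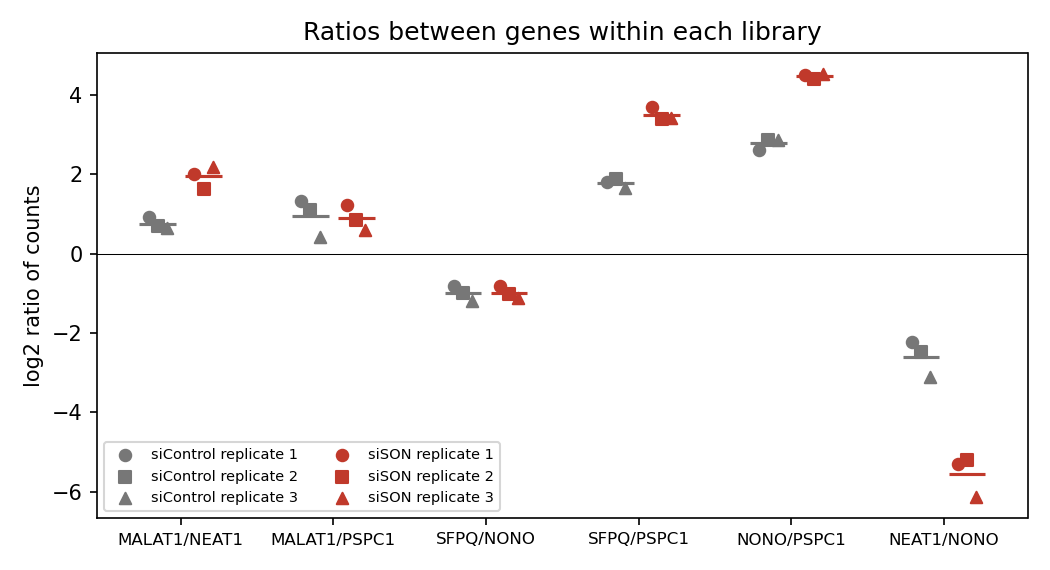
Log2 ratios of counts between pairs of the 5 genes, one point per library (3 siControl, 3 siSON). The MALAT1 to NEAT1 ratio is 0.66 to 0.92 in siControl and 1.63 to 2.19 in siSON, while the SFPQ to NONO ratio overlaps between groups.

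The 2 non-coding RNAs varied far more among replicates than the proteins. The within-group SD of log2 CPM was 0.46 for MALAT1 and 0.47 for NEAT1, above 99.9% of the 7867 genes whose mean log2 CPM reached 4 or more, and whose median was 0.080. SFPQ stood at 0.17, PSPC1 at 0.11 and NONO at 0.017, and only 0.496% of those genes varied less than NONO. Replicate 3 was the lowest library for both non-coding RNAs in both groups, and it also had the lowest share of mitochondrial counts in each group (6.13% and 6.08%, against 6.35% to 6.77% in the others). The part of that share in the spread was not tested.

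Overlapping and derived genes took few counts. The small RNA and antisense rows inside MALAT1 and NEAT1 held 0 or 1 count in every library. They lie within the merged exons of these genes, and how reads overlapping several genes were counted is not given. Their counts therefore cannot show the level of these RNAs. The processed pseudogene NONOP2 had 23, 18 and 22 counts in siControl and 46, 32 and 30 in siSON, against 35642 to 42495 for NONO. PSPC1P1 had 17, 7 and 7 counts and then 3, 0 and 0, and the antisense gene PSPC1-AS2 had at most 4. Whether the counting used strand or reads that map to several places is not given in the sources used here.

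Among the other proteins that paraspeckle formation is reported to need, RBM14 rose and SMARCA4 fell. Of 6 such genes, 3 were called higher, 2 lower and 1 neither (71.7% of all genes were called), with a median log2 fold change of 0.12 (2 up and 3 down when scaled by library size only, 1 and 3 after cyclic loess). RBM14, which bridges paraspeckle subunits, rose from 48.8 ± 3.71 to 102 ± 10.6 CPM (log2 fold change 1.06, edgeR adjusted p = 5.27e-07). The RBM14 gene overlaps the read-through gene RBM14-RBM4 on the same strand. SMARCA4, a SWI/SNF chromatin remodeling ATPase, fell from 160 ± 4.40 to 108 ± 11.9 CPM (-0.57, adjusted p = 3.90e-05). HNRNPK, which favours the long NEAT1 form by blocking early 3′ end processing, was at 566 ± 11.9 and 709 ± 15.2 CPM (0.32, adjusted p = 5.10e-05; -0.085 under cyclic loess). DAZAP1 was at 131 ± 2.34 and 154 ± 6.33 CPM (0.24, adjusted p = 0.00165; -0.047 under cyclic loess). HNRNPH3 was at 168 CPM in both groups (0.0017, adjusted p = 0.981; -0.20 with library size alone).

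Further genes reported as paraspeckle components gave 26 tested rows, 2 of them for MATR3. Of these rows, 14 were called higher, 4 lower and 8 neither, with a median of 0.21. That is 69.2% called, near the 71.7% over all genes. Library size alone gave 10 higher and 6 lower, and cyclic loess 9 and 8. RBM3, a cold-induced RNA-binding protein, rose from 175 ± 3.58 to 566 ± 8.08 CPM (1.70, edgeR adjusted p = 6.78e-10), while its relative CIRBP fell from 131 ± 5.16 to 66.8 ± 0.400 CPM (-0.98, adjusted p = 3.38e-08). ZC3H6 fell from 5.02 ± 0.643 to 2.38 ± 0.398 CPM (-1.08, adjusted p = 0.000108). MATR3 has 2 overlapping rows, of which the smaller went from 4, 5 and 15 counts to 68, 31 and 34 (2.82, adjusted p = 0.000313) and the other did not pass (-0.16, adjusted p = 0.543), so its direction is uncertain.

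The short NEAT1 form is made when cleavage and polyadenylation occur early. Of 11 tested genes that act at this 3′ end choice, 4 were higher, 4 lower and 3 neither (3 and 5 with library size alone, 3 and 7 under cyclic loess). The 72.7% called is close to the 71.7% over all genes, so the count is no result about the list. CSTF3, a cleavage stimulation factor subunit, fell from 63.4 ± 1.999 to 13.6 ± 0.523 CPM (-2.22, edgeR adjusted p = 1.27e-09). CPSF4, a subunit of the polyadenylation specificity factor, fell from 58.3 ± 1.12 to 19.1 ± 0.519 CPM (-1.61, adjusted p = 4.10e-09). WDR33, which binds the AATAAA signal, rose from 39.1 ± 1.09 to 106 ± 6.69 CPM (1.44, adjusted p = 8.64e-09), and FIP1L1 rose from 29.3 ± 2.87 to 54.8 ± 1.46 CPM (0.91, adjusted p = 1.06e-06).

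Of 15 tested genes listed for MALAT1 end processing, the triple helix or RNA methylation, 8 were higher, 6 lower and 1 neither. The median was 0.24, and 93.3% were called against 71.7% over all genes. Library size alone gave 5 higher and 6 lower. METTL3 (-1.17), METTL14 (-0.26) and YTHDC1 (0.47) were in the list for RNA methylation, so the count is not about end processing alone. Subunits of RNase P, which makes the MALAT1 end shown above, included POP5, which fell from 31.5 ± 0.952 to 10.3 ± 0.132 CPM (-1.62, edgeR adjusted p = 9.92e-09). RPP25 fell from 2.42 ± 0.579 to 0.727 ± 0.0808 CPM (-1.74, adjusted p = 3.81e-05), and RPP21 rose from 0.886 ± 0.182 to 2.32 ± 0.660 CPM (1.39, adjusted p = 0.000529). RPP21 overlaps the read-through gene TRIM39-RPP21 on the same strand. Among the other RNase P subunits tested, POP1 (0.43), POP4 (0.24), RPP14 (0.35), RPP30 (0.58) and RPP38 (0.27) were called higher under TMM scaling. RPP40 (-0.77) was called lower and POP7 (0.088) was not called, so the subunits did not mainly fall. METTL16, a methyltransferase that binds the MALAT1 triple helix, rose from 22.1 ± 1.95 to 45.9 ± 1.156 CPM (1.05, adjusted p = 2.97e-07).

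Of 14 nuclear speckle genes, SON included, 5 were higher, 2 lower and 7 neither, or 50% called against 71.7% over all genes. Library size alone gave 2 higher and 6 lower. Cyclic loess gave 3 higher and 10 lower, a larger share called than the 11666 of 16591 genes under that scaling. The smaller share therefore depends on the scaling. SRRM2, the other speckle scaffold, rose from 621 ± 54.5 to 1081 ± 45.0 CPM (0.80, edgeR adjusted p = 7.43e-07), and RNPS1 rose from 133 ± 2.94 to 203 ± 1.29 CPM (0.61, adjusted p = 4.94e-07). PNISR was at 118 ± 9.38 and 96.0 ± 14.8 CPM (-0.29, adjusted p = 0.0281), a call lost without siControl replicate 1 or siSON replicate 3. Among 4 transcription factors reported to act on NEAT1, EPAS1 (0.60, adjusted p = 2.21e-06) and ATF2 (0.39, adjusted p = 0.000221) were the 2 called higher, and HSF1 (-0.21, adjusted p = 0.0148) was among the 2 called lower. The HSF1 call was lost without siControl replicate 2, siSON replicate 1 or siSON replicate 3.

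Of 12 other abundant or nuclear long non-coding RNAs, 8 were lower, 2 higher and 2 neither, with a median of -0.40. Over all 790 lincRNAs 45.6% were lower and 13.5% higher, with a median of -0.67, and over all genes 71.7% were called. NORAD, which sequesters PUMILIO proteins in the cytoplasm, fell from 402 ± 9.64 to 122 ± 6.31 CPM (-1.72, edgeR adjusted p = 1.42e-09), and MIAT fell from 4.06 ± 1.09 to 1.64 ± 0.258 CPM (-1.30, adjusted p = 0.000244). FIRRE rose from 2.18 ± 0.549 to 3.57 ± 0.469 CPM (0.71, adjusted p = 0.00639). GAS5 overlapped between groups at 98.4 ± 7.25 and 111 ± 8.25 CPM (0.18, adjusted p = 0.0447), and was -0.021 with library size alone and -0.070 under cyclic loess.

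**Figure D4:**
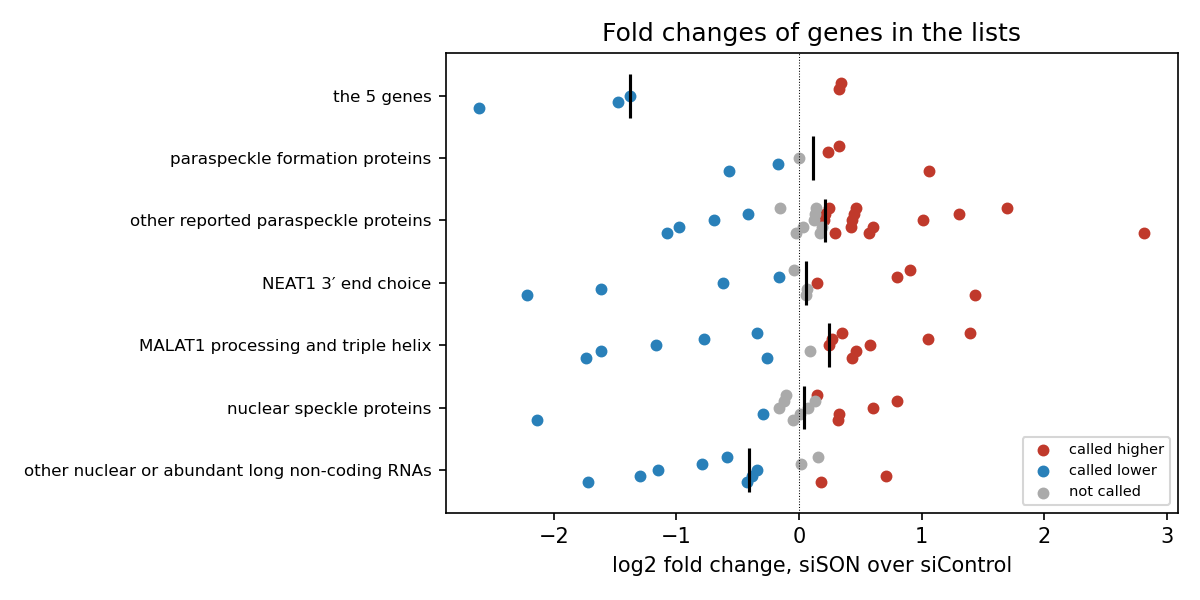
Log2 fold change (siSON over siControl, TMM scaling) of each tested gene in 6 lists and of the 5 genes, with a vertical line at each median. The 3 fallen genes lie between -2.61 and -1.38, and RBM3 at 1.70 and CSTF3 at -2.22 stand at opposite sides.

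NEAT1 and MALAT1 lie in a gene-dense stretch of chromosome 11. Of 11 listed neighbours tested, 6 were lower, 3 higher and 2 neither, with a median of -0.37. That is 81.8% called against 71.7% over all genes (36.5% lower, 35.2% higher). Over a wider stretch around the pair, 20 neighbours were tested, of which 9 were lower, 6 higher and 5 neither. SLC25A45, upstream of NEAT1, fell from 8.06 ± 0.528 to 0.419 ± 0.0738 CPM (-4.26, edgeR adjusted p = 4.40e-09), and EHBP1L1, beyond MALAT1, from 153 ± 12.2 to 14.6 ± 4.48 CPM (-3.40, adjusted p = 4.33e-07). FRMD8, which lies next to NEAT1 on its upstream side, was at 50.2 ± 1.40 and 45.4 ± 2.39 CPM (-0.14, adjusted p = 0.0589). FRMD8 passed the test under 6 of 14 alternatives. LTBP3 (-1.08), POLA2 (-1.19), MAP3K11 (-0.37) and TIGD3 (-1.80, a call lost under cyclic loess) were lower, and DPF2 (0.82) and SSSCA1 (1.02) higher. FAM89B, which overlaps SSSCA1, was at -0.061 (adjusted p = 0.683).

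**Figure D5:**
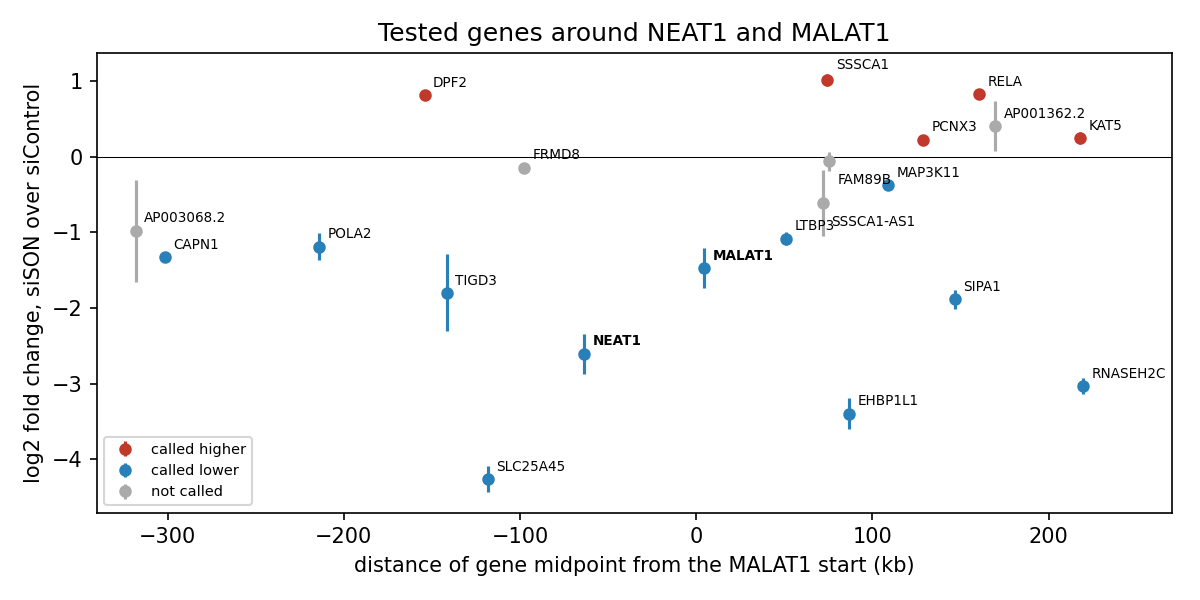
Log2 fold change (siSON over siControl) of tested genes around NEAT1 and MALAT1 against distance of the gene midpoint from the MALAT1 start in kb, with bars of 1 SE. NEAT1 (-2.61) and MALAT1 (-1.47) stand among genes from -4.26 (SLC25A45) to 1.02 (SSSCA1).

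The genes with the most similar profile were sought by the root mean square difference of centred log2 CPM over the 6 libraries, among 7862 genes. For MALAT1 these were TPP1 (0.203) and WDR81 (0.238), and for NEAT1 ZDHHC8 (0.247) and GATD1 (0.271). PSPC1 was closest to NMRAL1 (0.0544) and PLAT (0.0546). SFPQ was closest to STX1A (0.0329) and ZBTB43 (0.0521), and NONO to GABPB1 (0.0145) and TEX261 (0.0145). The distances for MALAT1 and NEAT1 were larger than for the 3 protein genes. This measure takes in both the group difference and the replicate spread, and that spread was larger for MALAT1 and NEAT1. The larger distances are therefore not a separate result.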

How the data were processed

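RNA-seq libraries of 6 RPE-1 samples were compared, 3 siSON against 3 siControl. The authors deposited whole-number counts per gene. Per the submitters' processing notes, cutadapt 1.16, STAR 2.5.2a, featureCounts 1.6.2, DESeq2 1.28.1 and hg38 were used, with no roles stated; strand and multimapping settings are not given in the sources used here. All 58735 gene identifiers matched GENCODE 29 (GRCh38), from which positions, transcripts and sequences were taken.

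Counts were tested with the edgeR 4.0.16 quasi-likelihood test in R 4.3.3 (filterByExpr with a minimum count of 10, TMM factors, robust fit, group as the only term). Benjamini-Hochberg adjustment ran over the 16591 genes tested, and an adjusted p under 0.05 was a call. The scripts were tested on simulated data. Ratios between genes used log2 of the count plus an offset, with exact 2-sided permutation tests. Alternatives were DESeq2 1.42.0, limma-voom (limma 3.58.1), other scalings and filters, a replicate block and the omission of each library.

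The members and lists were chosen with earlier results of these data known. Named genes were the 5 genes and SON, all paraspeckle formation genes, the 2 called genes with the largest rise and fall in each other list, all tested listed neighbours, and the 2 genes most like each of the 5. Others named were chosen after their values were seen. Some items are not reported here.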

Additional observations from a re-analysis of the deposited data

How the results depend on the processing

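The calls and directions of MALAT1, NEAT1 and PSPC1 held under all 14 alternatives run. Leaving out each library in turn gave -1.73 to -1.19 for MALAT1 (largest adjusted p 0.0389), -2.82 to -2.36 for NEAT1 (0.0118), -1.45 to -1.32 for PSPC1, 0.25 to 0.41 for SFPQ (0.0361), 0.30 to 0.35 for NONO and 11153 to 11783 genes called. Library size alone moved the median of all genes from -0.027 to -0.22, and cyclic loess to 0.038. SFPQ was 0.14 (adjusted p = 0.188) with library size alone and -0.015 (0.895) under cyclic loess, where NONO was -0.085. Cyclic loess also gave 13 called nuclear speckle genes against 7, HNRNPK -0.085, DAZAP1 -0.047, HNRNPH3 -0.30, FAM89B 0.24 and GAS5 -0.070. Library size alone gave HNRNPH3 -0.20 and GAS5 -0.021, and a mean count of at least 50 gave HNRNPH3 -0.055. Without single libraries HNRNPH3 ranged from -0.043 to 0.038, FAM89B from -0.15 to 0.028, the MALAT1 to PSPC1 ratio from -0.32 to 0.14 and the SFPQ to NONO ratio from -0.075 to 0.11. The cause of these changes was not tested. Same-number correlations of deviations from the group mean were 0.194, 0.0461 and 0.118, all above the different-number ones (-0.138 to 0.0286). Whether replicate numbers pair the libraries was not tested further, and the main test did not use them. With a replicate block MALAT1 was -1.43 (SE 0.078), NEAT1 -2.62 (SE 0.072), PSPC1 -1.38, SFPQ 0.34 and NONO 0.32, 12313 genes were called, and FRMD8 became called. Depth limits the values of genes near 3 counts, and the 5 genes had at least 519 counts in every library.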

Other observations

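Among genes whose mean log2 CPM reached 4 or more, 7 varied more within groups than NEAT1. They were EGR1 (SD of log2 CPM 0.91), FOSB (0.67), SERPINB2 (0.64), IL11 (0.54), INSIG1 (0.50), RRM2 (0.50) and SPRY4 (0.49), chosen after their values were seen. EGR1 and FOSB are immediate early transcription factors and INSIG1 regulates sterol synthesis. EGR1 (log2 fold change -0.24, edgeR adjusted p = 0.748) and FOSB (-0.16, adjusted p = 0.725) did not pass the test. IL11, an interleukin, fell by 2.37 (adjusted p = 6.50e-05), RRM2, a ribonucleotide reductase subunit, by 1.68 (adjusted p = 0.000348), and INSIG1 was at -1.47 (adjusted p = 0.00166). SERPINB2 rose by 1.503 (adjusted p = 0.00534) and SPRY4 by 0.97 (adjusted p = 0.0124).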
